A study of Mus musculus with 36 samples.

Results

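The hypothalamus of Dicer conditional knockout (cKO) and control mice was compared 4 weeks after injection, on 6 of the 36 arrays of the series. These 6 arrays were chosen by the tissue, agent and time in their labels, and each came from a separate animal. Both groups carried the same alleles: a hemizygous Camk2a-CreERT2 transgene, which makes a tamoxifen-dependent Cre recombinase from the Camk2a promoter, and 2 floxed copies of Dicer (Cre+;Dicer lox/lox, C57BL/6J background). The 3 cKO mice received 10 mg of tamoxifen in all from 8 weeks of age, and the 3 control mice of the same age received the sunflower oil and ethanol vehicle. The agent tamoxifen and the excision of Dicer therefore cannot be told apart on these arrays. The Camk2a promoter is active in subsets of neurons, so that cells without it, glia included, would keep an intact Dicer in the cKO mice, which these arrays do not measure. The dissected block ran from the optic chiasm to the mammillary bodies and was taken when cKO mice were already obese. For comparison, values are also given from the 6 hypothalamus arrays of the same groups at 8 weeks and the 6 cortex arrays at 4 weeks.

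Dicer cuts hairpin precursors into mature miRNAs, which guide Argonaute proteins to mRNAs through a short seed at their 5′ end and lower the stability and translation of those mRNAs. The hypothalamus weighs hunger against satiety. Neurons with neuropeptide Y (Npy) drive feeding, whereas neurons with proopiomelanocortin (Pomc) release melanocortins that restrain it, and both respond to leptin and insulin.

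The arrays measured mRNAs and not mature miRNAs, so miRNAs entered only through the genes that host them. The mature sequences of 3 miRNAs are shown because 5 of their host genes were among the genes tested. They were taken from RefSeq (GRCm38.p6), and capitals mark the seed, bases 2 to 8.
miR-103-3p: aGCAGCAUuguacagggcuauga
miR-107-3p: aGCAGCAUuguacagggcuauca
miR-128-3p: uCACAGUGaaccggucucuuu
miR-103-3p and miR-107-3p have the same seed and lie within genes of the pantothenate kinase family, the first step of coenzyme A synthesis. miR-103-3p has a copy in Pank3 (chr11:35782447-35782469, plus strand) and a copy in Pank2 (chr2:131288103-131288125, plus strand). miR-107-3p lies in Pank1 (chr19:34820700-34820722, minus strand). miR-128-3p, a neuronal miRNA, lies in R3hdm1 (chr1:128202404-128202424, plus strand) and in Arpp21 (chr9:112118644-112118664, minus strand).

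No gene passed the test between cKO and control hypothalamus. Values are log2 levels after RMA (a log2 difference of 1 is a 2-fold change), and a difference is the mean of the 3 cKO arrays minus the mean of the 3 control arrays. In limma, 0 genes had an adjusted p under the study's threshold of 0.15 (0% of the genes tested), and the lowest adjusted p was 0.832. At an unadjusted p under 0.05, 245 genes were higher in cKO (1.58%) and 180 were lower (1.16%). Together these were 2.75% of the genes, less than the share of 0.05 that this cut-off gives where no gene differs. All 3 cKO arrays lay above all 3 control arrays for 437 genes (2.83%) and below them for 589 (3.81%). Together these were 6.64% of the genes, less than the share of 0.1 that chance alone gives for 3 against 3. Neither an unadjusted p under 0.05 nor groups that do not overlap thus sets a gene apart from chance here. The difference was above 0 for 44.6% of the genes, and the median difference was -0.0141. The count of 425 genes at an unadjusted p under 0.05 turned on single arrays. It was 264 without control array 1, 889 without cKO array 1, 754 without control array 2 and 882 without control array 3.

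The precision of the test can be read from its intervals. The median half-width of the 95% confidence intervals was 0.222 on the log2 scale. For 88.7% of the genes the whole interval lay between -0.5 and 0.5, and for 98.4% it lay between -1 and 1. Since the RNA came from the whole block, fewer cells of a type cannot be told apart from less RNA per cell. The plot of differences and p-values shows 6 genes beyond a difference of 1 in either direction. The pituitary hormone gene Gh was the only one of them that was higher, and its own arrays scattered widely.

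**Figure D1:**
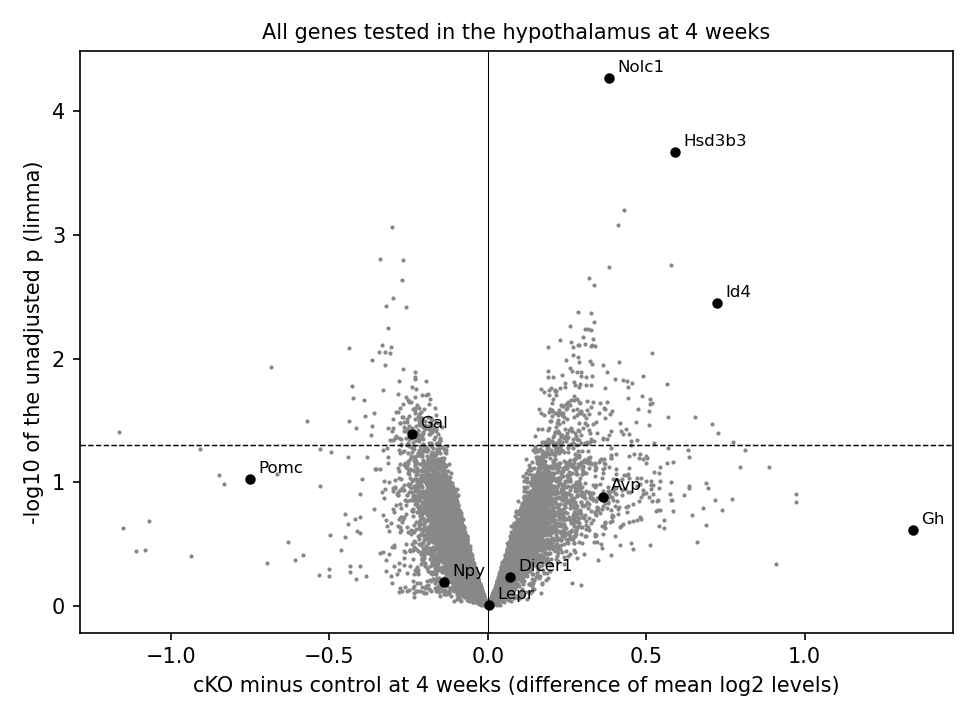
Each point is a gene tested in the hypothalamus at 4 weeks, with the cKO minus control difference (log2) on the x axis and -log10 of the unadjusted limma p on the y axis; the dashed line marks a p of 0.05. Named points are genes described in the text, such as Nolc1, which had the lowest p, and Lepr, which had a difference of 0.00.

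Control array 1 stood apart from the other 5 arrays, and differences and medians without it are given beside the results that it moved most. The first principal component of the 6 arrays held 50.2% of the variance and put control array 1 at 30.8, with the others between -8.58 and -1.99. It was the lowest of the 6 arrays by more than 0.5 for 475 genes and the highest for 135, against 1 to 19 and 0 to 7 genes for each of the others. Genes of the leptomeninges, which cover the brain, had a median deviation of 1.02 from their 6-array mean on control array 1 and of -0.44 to -0.01 on the others. Transcripts that stay in the nucleus, such as Malat1, had a median deviation of -0.25 there and of 0.03 to 0.11 elsewhere. Malat1 was at 12.24, 12.30 and 12.32 on the cKO arrays and at 10.46, 12.34 and 12.16 on the control arrays. The 3′ minus 5′ difference of the actin control probes, a sign of RNA quality, differed between the groups by -0.0453 (exact permutation test, two-sided, p = 0.5, where the smallest p that 3 against 3 allows is 0.1). This test compares the groups and not control array 1 with the others. On control array 1 the actin value was 1.27, and on the others 1.13 to 1.29. The same value for GAPDH was -0.0018 on control array 1 and -0.078 to 0.084 on the others.

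**Figure D2:**
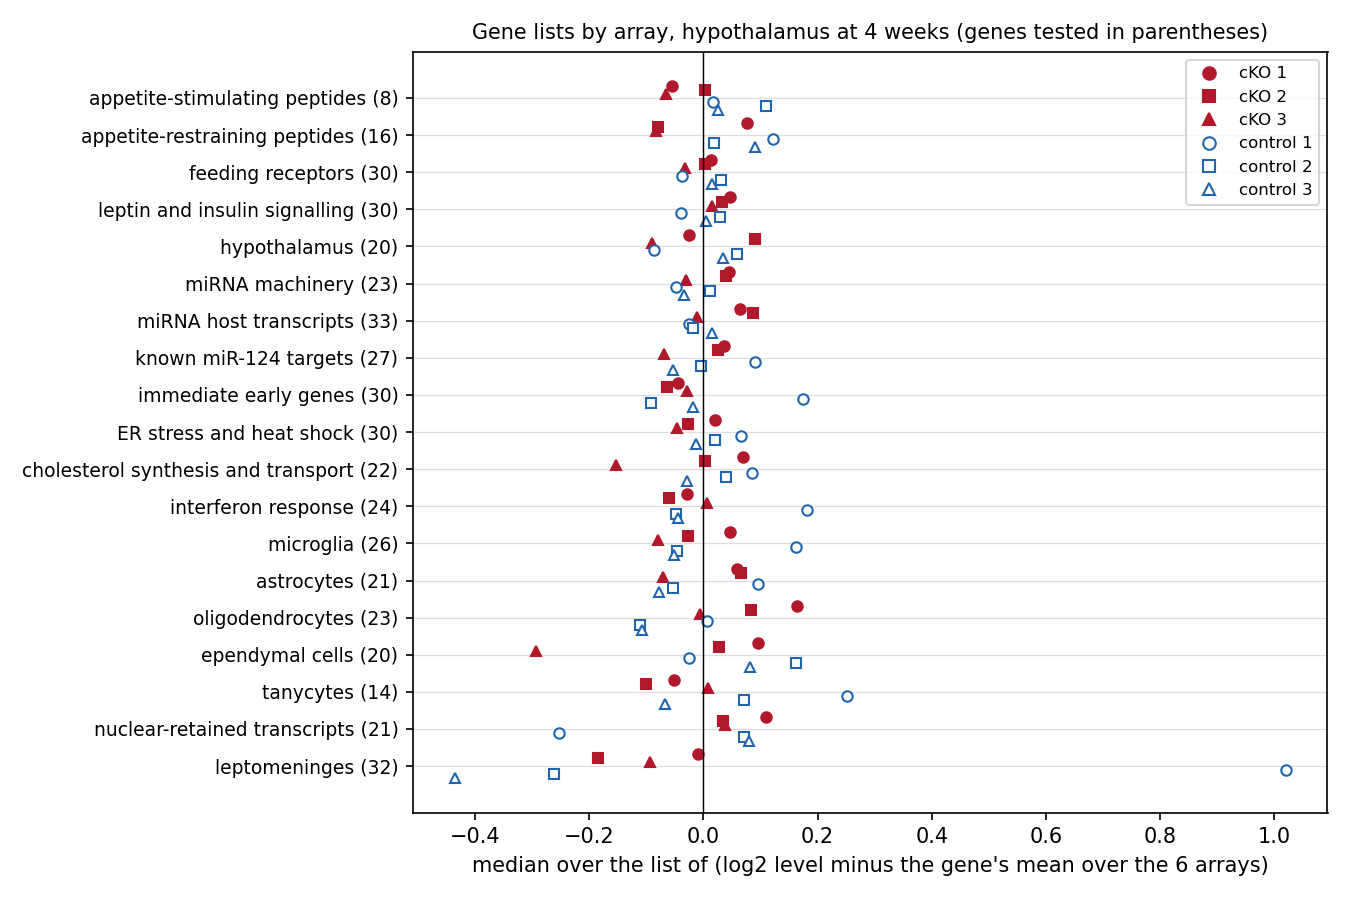
For each gene list and each of the 6 arrays, the x axis gives the median over the list of the log2 level minus the gene's mean over the 6 arrays; filled symbols are cKO arrays and open symbols control arrays. Control array 1 (open circle) lies at 1.02 for the leptomeninges and at -0.25 for nuclear-retained transcripts, away from the other arrays.

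The Dicer transcript differed by less than the spread between arrays. Dicer1 was at 6.95, 7.07 and 6.73 on the cKO arrays and at 6.95, 6.80 and 6.80 on the control arrays, and the groups overlapped. The difference was 0.07 (95% confidence interval -0.20 to 0.33), and a second probe set differed by -0.03. The difference of Dicer1 was 0.12 without control array 1. No source used here places these probes relative to the excised exon, so that they do not check the recombination. Camk2a, the kinase gene whose promoter drives Cre, differed by 0.12 on the probe set used, and its other probe sets averaged -0.07.

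Genes of the miRNA pathway showed no common direction. Of 23 genes of the miRNA machinery, 11 were higher and 12 lower in cKO, with a median difference of -0.00 beside -0.01 over all genes. Tnrc6a, a GW182 scaffold that Argonaute recruits to silence mRNAs, was at 6.17, 6.09 and 5.92 in cKO and at 5.25, 5.88 and 5.88 in control. Its groups did not overlap, but the difference of 0.39 became 0.18 without control array 1. Prkra, a partner protein of Dicer, was lower on all 3 cKO arrays by a mean of -0.10. No member of the list had an adjusted p under the threshold in limma.

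Most miRNA host transcripts had a difference above 0. Of 33 host transcripts, 23 were higher, with a median difference of 0.06, and the median was 0.05 without control array 1. Pank2, which hosts a copy of the miR-103-3p shown above, was at 6.34, 6.38 and 6.34 in cKO and at 5.90, 6.06 and 6.25 in control. The cKO arrays were tightly grouped and lay above every control array, with a difference of 0.28 (95% confidence interval 0.09 to 0.48). The mean of its other probe sets was -0.04. The other pantothenate kinase genes differed less, Pank1 by -0.10 and Pank3 by 0.03. R3hdm1, a host of miR-128-3p, was at 6.998, 6.83 and 6.80 in cKO and at 4.91, 6.84 and 6.80 in control. Its difference of 0.69 rested on control array 1 and was 0.05 without it, and Arpp21, the other host, differed by -0.08. Pank1, Pank3, R3hdm1 and Arpp21 were added for the sequences shown, after their values were seen.

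The long noncoding host of miR-124, Mir124-2hg, was at 8.75, 8.63 and 8.43 in cKO and at 8.28, 8.38 and 8.36 in control. The groups did not overlap, and the difference was 0.26 (95% confidence interval -0.03 to 0.56). miR-124 is an abundant miRNA of neurons, and its known target mRNAs are genes of non-neuronal cells. Of 27 known miR-124 targets, 12 were higher and 15 lower in cKO, with a median difference of -0.01. None of them had groups that did not overlap, beside 6.64% of all genes, and none had an unadjusted p under 0.05, beside 2.75%. In a list of this size, counts of 0 are near those shares. Their differences lay between -0.19 and 0.13. The balance turned without control array 1, with 19 of 27 higher and a median of 0.02. At 8 weeks 22 of the 27 were higher, with a median of 0.12 beside -0.00 over all genes. For 1 of the 27 the change was higher at 8 weeks at an unadjusted limma p under 0.05, beside 3.23% of all genes. Among lists of non-neuronal cells, 26 of 26 microglial genes (median 1.15) and 18 of 21 astrocyte genes (0.13) were higher at 8 weeks, against 6 of 23 oligodendrocyte genes (-0.10). The part of such cells in the target values was not tested.

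Appetite-stimulating peptide genes were slightly lower in cKO, each of them by less than the 95% interval could separate from 0 except Gal. All 8 measured genes had a difference below 0, with a median of -0.12, while 44.6% of all genes had a difference above 0. Ghrl, 1 of the 8, lay between 4.88 and 5.14 on the 8-week arrays, near the lowest level kept for testing (4.88). Npy was at 9.62, 9.96 and 10.15 on the cKO arrays and at 10.41, 10.06 and 9.68 on the control arrays. The groups overlapped throughout, and the difference was -0.14 (95% confidence interval -0.77 to 0.49). It turned to 0.04 without control array 1 and to 0.01 without cKO array 1.

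Peptides of the lateral hypothalamus had small differences. Pmch, the precursor of melanin-concentrating hormone, was at 13.40, 13.43 and 13.30 in cKO and at 13.41, 13.59 and 13.43 in control, a difference of -0.10 (95% confidence interval -0.28 to 0.08). Hcrt, the precursor of the orexins that promote wakefulness and feeding, was at 12.40, 12.64 and 12.35 in cKO and at 12.32, 12.82 and 12.73 in control, a difference of -0.16 that was -0.31 without control array 1. Galanin (Gal) was at 10.28, 10.33 and 9.98 in cKO and at 10.30, 10.54 and 10.46 in control. Only for Gal did the interval leave out 0, with a difference of -0.24 (95% confidence interval -0.46 to -0.01; limma, adjusted p = 0.998), although its groups overlapped at control array 1. The opioid precursor genes Pdyn and Penk differed by -0.14 and -0.07, with groups that did not overlap for Penk, and Pnoc and Ghrl by -0.05 and -0.06. Without control array 1 the median of the 8 genes was -0.07, and 1 of them was higher in cKO.

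Among the appetite-restraining peptides Pomc had the clearest separation. It was at 9.37, 9.30 and 9.30 on the cKO arrays and at 10.19, 10.16 and 9.88 on the control arrays, so that every cKO array lay more than 0.5 below every control array. The difference was -0.75 (a 1.68-fold lower level, 95% confidence interval -1.65 to 0.15; limma, adjusted p = 0.998). A second probe set of Pomc was also lower on every cKO array, by -0.64. The interval of the fit is wide, since the fit shares its spread with the 8-week arrays, where Pomc ran from 8.49 to 10.71 within the cKO group. In limma on the 6 arrays at 4 weeks alone the interval was -0.98 to -0.51 and the adjusted p = 0.999. Leaving out control array 1 left the difference at -0.69. Pomc is also made in the pituitary, which lies against the dissected block, and pituitary genes varied between the arrays. The glycoprotein hormone subunit Cga was at 7.27, 6.69 and 7.27 in cKO and at 9.55, 8.36 and 4.83 in control, and Tshb was at 5.47, 5.16 and 5.68 in cKO and at 6.47, 6.02 and 5.53 in control. Gh was at 3.85, 6.20 and 5.18 in cKO and at 3.89, 3.79 and 3.53 in control. Tbx19, a factor of the pituitary cells that make Pomc, differed by -0.01. Cga, Gh and Tbx19 are given beside Pomc after their values were seen. Without control array 1 the difference of Cga turned from -0.50 to 0.48, and that of Tshb was -0.34 in place of -0.57. Over the 9 pituitary markers, 4 were higher and 5 lower with a median of -0.01 (0.06 without control array 1). Dlk1, also on this list, was higher on every cKO array than on every control array, with a difference of 0.31. The part of the pituitary markers in the Pomc difference was not tested.

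The appetite-restraining genes as a list divided around 0. Of 16 measured, Pomc included, 6 were higher and 10 lower, with a median of -0.03 that was -0.06 without control array 1. Cartpt, the precursor of the CART peptide found in many Pomc neurons, was at 11.26, 10.92 and 11.16 in cKO and at 10.92, 11.05 and 10.95 in control, a difference of 0.14. Tac1, the substance P precursor, was at 11.32, 11.31 and 11.44 in cKO and at 11.59, 11.47 and 11.56 in control, and the groups did not overlap at a difference of -0.18 (95% confidence interval -0.45 to 0.08). Neuromedin B (Nmb) was at 7.61, 7.35 and 7.36 in cKO and at 7.70, 7.60 and 7.64 in control, a difference of -0.20 (95% confidence interval -0.40 to -0.01) with groups that overlapped at cKO array 1. Bdnf, Adcyap1, Nts, Trh and Cck differed by -0.14, -0.09, -0.04, 0.03 and 0.11. Leaving out control array 1 gave -0.26 for Nts, -0.13 for Trh and 0.40 for Cck. Npvf, the precursor of RFamide peptides that inhibit reproduction and act on feeding, was at 7.29, 7.44 and 7.18 in cKO and at 7.76, 7.54 and 7.92 in control. Its groups did not overlap and the difference was -0.44 (95% confidence interval -0.74 to -0.14), but the gene was picked after its values were seen.

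**Figure D3:**
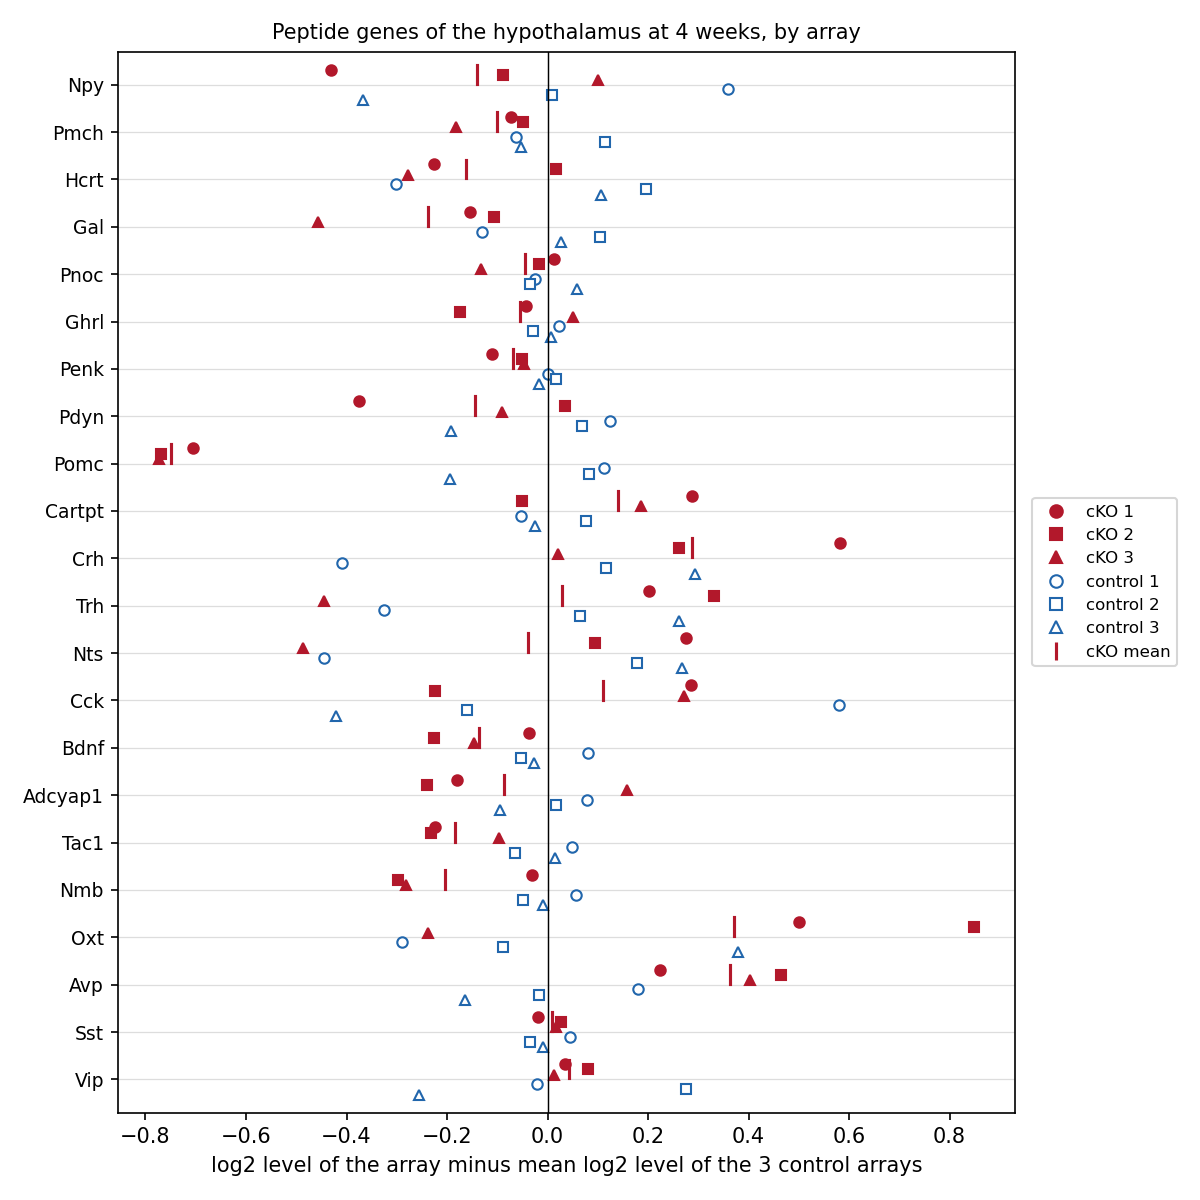
For 22 peptide genes, the x axis gives the log2 level of each array minus the mean of the 3 control arrays; filled symbols are the 3 cKO arrays, open symbols the 3 control arrays and the vertical mark the cKO mean. The cKO arrays lie below all control arrays for Pomc, at a mean of -0.75, while Npy and Hcrt overlap.

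Among neurosecretory peptides, Avp and Oxt had differences above 0 and somatostatin was level. Avp, the vasopressin precursor of magnocellular neurons, was at 12.37, 12.61 and 12.55 in cKO and at 12.33, 12.13 and 11.99 in control. All cKO arrays lay above the control arrays, with a difference of 0.36 (95% confidence interval -0.12 to 0.85), and without control array 1 it was 0.45. Oxytocin (Oxt) was at 11.89, 12.24 and 11.15 in cKO and at 11.10, 11.30 and 11.77 in control, and its groups overlapped at a difference of 0.37, or 0.23 without control array 1. Corticotropin-releasing hormone (Crh), the start of the stress axis, differed by 0.29, and by 0.08 without control array 1. Somatostatin (Sst) was at 11.05, 11.09 and 11.08 in cKO and at 11.11, 11.03 and 11.06 in control, a difference of 0.01 (95% confidence interval -0.15 to 0.16). Vip, a signal of the suprachiasmatic clock, was at 8.57, 8.62 and 8.55 in cKO and at 8.52, 8.81 and 8.28 in control, a difference of 0.04. Of the 24 genes of this list 14 were higher, with a median of 0.03.

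Urocortin (Ucn) had the lowest p of the neurosecretory list, and genes of a neighbouring region were higher beside it. Ucn was at 6.29, 5.71 and 6.70 in cKO and at 5.39, 5.31 and 5.69 in control, a difference of 0.77 (95% confidence interval 0.01 to 1.54). The peptide is made mostly in the midbrain, and 12 genes of midbrain dopamine neurons and their neighbours, a list made after these values were seen, were all higher in cKO with a median of 0.42, or 0.68 without control array 1. The dopamine synthesis gene Th was at 10.18, 9.62 and 10.15 in cKO and at 10.09, 9.19 and 8.46 in control. The dopamine transporter gene Slc6a3 was at 10.80, 10.18 and 10.64 in cKO and at 10.91, 9.78 and 8.20 in control. Across the 6 arrays these genes were lowest on control arrays 2 and 3. Without control array 1 the difference of Th was 1.16 in place of 0.74 and that of Slc6a3 1.55 in place of 0.91. At 8 weeks all 12 were lower in cKO with a median of -0.53. The part of the dissection border in these differences was not tested.

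Receptors for feeding signals were close to equal in both groups. Of 30 measured, 16 were higher and 14 lower, with a median of 0.01 that turned to -0.02 without control array 1, and for 25 the whole 95% interval lay within 0.5 of 0. Lepr, the leptin receptor, was at 6.18, 6.23 and 6.54 in cKO and at 6.36, 6.19 and 6.40 in control, a difference of 0.00 (95% confidence interval -0.26 to 0.26). The insulin receptor Insr was at 8.52, 8.50 and 8.27 in cKO and at 8.44, 8.52 and 8.30 in control, a difference of 0.01 (95% confidence interval -0.18 to 0.20). The melanocortin receptor Mc3r differed by -0.00 with an interval of -0.20 to 0.20. For these 3 receptors the intervals leave out a difference of 0.5 in either direction. The neuropeptide Y receptors Npy1r and Npy5r differed by -0.04 and -0.13, the orexin receptors Hcrtr1 and Hcrtr2 by 0.02 and 0.13, and the melanin-concentrating hormone receptor Mchr1 by 0.07 (0.18 without control array 1). Crhr2, a receptor for urocortins, had the lowest p of the list, at 5.81, 5.77 and 5.73 in cKO and 5.94, 6.03 and 6.00 in control. Its groups did not overlap and the difference was -0.22 (95% confidence interval -0.41 to -0.03), whereas its other probe set differed by 0.04. Ntrk2, the receptor for Bdnf, differed by 0.27 on the probe set used and by a mean of -0.01 over the others. Leaving out control array 1 gave 0.17 for Ntrk2.

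Of 30 genes of leptin and insulin signalling, 1 had an unadjusted p under 0.05, a count near the share over all genes (2.75%). Socs3, which leptin induces and which dampens the leptin receptor, was at 6.63, 6.21 and 6.63 in cKO and at 6.11, 6.23 and 6.01 in control. It was higher by 0.37 (95% confidence interval 0.04 to 0.70), with cKO array 2 within the range of the control arrays. The other probe sets of Socs3 differed by 0.03 and 0.07. Ptpn11, a phosphatase that relays leptin signals, differed by 0.39, and by 0.14 without control array 1. Over the 30 genes, 20 were higher, with a median of 0.03 that became -0.00 without control array 1. Of the 20 hypothalamus markers 9 were higher and 11 lower. Pmch, Hcrt, Pomc, Oxt, Avp and Gal, peptide genes of this list, were all above a log2 level of 9. Not every marker of the list was that high. Six3, an early forebrain factor, was at 5.52, 5.83 and 5.78 in cKO and at 5.22, 5.50 and 5.56 in control. It was higher by 0.28, or 0.18 without control array 1. Its other probe set that passed the filter lay between 8.91 and 9.13 and differed by -0.03.

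Genes of oligodendrocytes, the myelinating glia, were higher in cKO as a group. Of 23 measured, 22 were higher, beside 44.6% of all genes, with a median of 0.17 beside -0.01 over all genes. In 6 of the 23 all cKO arrays lay above all control arrays, beside 2.83% of all genes. Mal, a membrane protein of compact myelin, was at 11.28, 11.25 and 11.24 in cKO and at 10.92, 10.96 and 11.03 in control. The arrays of each group were close together, and the difference was 0.29 (95% confidence interval 0.09 to 0.49; limma, adjusted p = 0.998). Sox10, the transcription factor of the lineage, was at 5.65, 5.80 and 5.46 in cKO and at 5.40, 5.38 and 5.43 in control, a difference of 0.23. Gjc3, a myelin connexin, differed by 0.57, and by 0.24 without control array 1. Without that array the median of the list was 0.20 and 23 of 23 genes were higher. By array, the median deviation of the list was 0.16, 0.08 and -0.01 on the cKO arrays and 0.01, -0.11 and -0.11 on the control arrays, so that the groups overlapped by a narrow margin. At 8 weeks 6 of the 23 genes were higher, with a median of -0.10 and thus the other sign. Markers of the thalamus, which borders the block and is rich in myelin, were higher in 10 of 12 with a median of 0.16. Without cKO array 1 that median was 0.06. By array, their median deviation was 0.19, 0.02 and 0.00 on the cKO arrays and 0.03, -0.10 and -0.12 on the control arrays. The part of the thalamus markers in the oligodendrocyte values was not tested.

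Genes of cells that line the third ventricle were mostly lower in cKO, and the median of the ependymal list rested on 1 array. Of 20 ependymal genes, which build motile cilia, 17 were lower in cKO, with a median of -0.10. By array, the median deviation was 0.10, 0.03 and -0.29 on the cKO arrays and -0.03, 0.16 and 0.08 on the control arrays, so that cKO arrays 1 and 2 lay within the control range. Without cKO array 3 the median difference was -0.0030. In 3 of the 20 genes all cKO arrays lay below all control arrays, beside 3.81% of all genes. Hydin, a cilium protein, was at 5.85, 5.86 and 5.74 in cKO and at 5.91, 6.02 and 6.04 in control. Its groups did not overlap, at a difference of -0.18. Without control array 1 the median of the list was -0.18. Of 14 genes of tanycytes, the ependymal cells that face the median eminence, 12 were lower with a median of -0.17, which became -0.08 without control array 1. Nes, an intermediate filament of tanycytes, was at 6.35, 6.19 and 6.47 in cKO and at 6.36, 6.68 and 6.75 in control, a difference of -0.26 with overlapping groups. Leptomeningeal genes were lower in 28 of 32 with a median of -0.20, and without control array 1 they were higher in 29 with a median of 0.24. The sign for the meninges thus turned with that array.

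Stress and activity genes gave few values of note. Ddit3, the CHOP factor of the unfolded protein response, was at 6.34, 6.51 and 6.41 in cKO and at 6.22, 6.23 and 6.02 in control, a difference of 0.26 (95% confidence interval 0.09 to 0.44). Its other probe set differed by -0.02, and 22 of the 30 genes of ER stress and heat shock were lower, with a median of -0.08. That median was -0.03 without control array 1, with 11 higher. Egr3, an immediate early gene, was at 6.00, 5.49 and 5.92 in cKO and at 7.08, 6.35 and 5.98 in control, a difference of -0.66. It was -0.36 without control array 1, and its other probe set differed by 0.04. Of 30 immediate early genes 21 were lower with a median of -0.06, and of -0.01 without control array 1.

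The genes with the lowest p in either direction gave other values on their other probe sets. By the rule for named genes, 10 genes higher and 10 lower in cKO were taken from those whose groups did not overlap, so that their separation was part of the choice. Nolc1, a chaperone of the nucleolus, was at 6.25, 6.12 and 6.17 in cKO and at 5.75, 5.79 and 5.86 in control, a difference of 0.38 (95% confidence interval 0.25 to 0.52; limma, adjusted p = 0.832). Its other probe sets differed by 0.08 and -0.14. Id4, an inhibitor of helix-loop-helix factors in neural progenitors, was at 8.98, 9.13 and 8.87 in cKO and at 7.91, 8.38 and 8.52 in control. It had the largest difference of the 20, 0.72 (95% confidence interval 0.29 to 1.16), while its other probe sets differed by a mean of -0.07. Hsd3b3, a steroid dehydrogenase, was at 7.42, 7.20 and 7.39 in cKO and at 6.69, 6.85 and 6.69 in control, a difference of 0.59. The rest of the 10 were Lrrc19 at 0.58, the orphan receptor gene Gpr26 at 0.43, the netrin receptor gene Unc5b at 0.41, Fjx1 at 0.33, the ephrin receptor gene Epha4 at 0.32, Snord104, a small nucleolar RNA, at 0.29, and a probe set of several genes.

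Among the 10 lower genes, Heatr1, a factor of ribosome synthesis, was at 5.88, 5.75 and 5.81 in cKO and at 6.23, 6.08 and 6.16 in control, a difference of -0.34 (95% confidence interval -0.52 to -0.16). Gab2, an adaptor of growth factor signals, differed by -0.30, the RNA-binding gene Fxr1 by -0.26, the splicing factor gene Prpf19 by -0.33, the histone gene H2aj by -0.31 and the keratin gene Krt19 by -0.27. The others were 2610206C17Rik at -0.30, 2810414N06Rik at -0.27, 0610012G03Rik at -0.32 and a probe set of several genes. For the 10 higher genes, 15 other probe sets of 7 genes were measured, of which 7 had the same sign and 0 were separate in the same direction. For the 10 lower genes, 21 other probe sets of 7 genes were measured, of which 12 had the same sign and 2 were separate. Prpf19 was higher in cKO on its other probe sets, by a mean of 0.17.

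**Figure D4:**
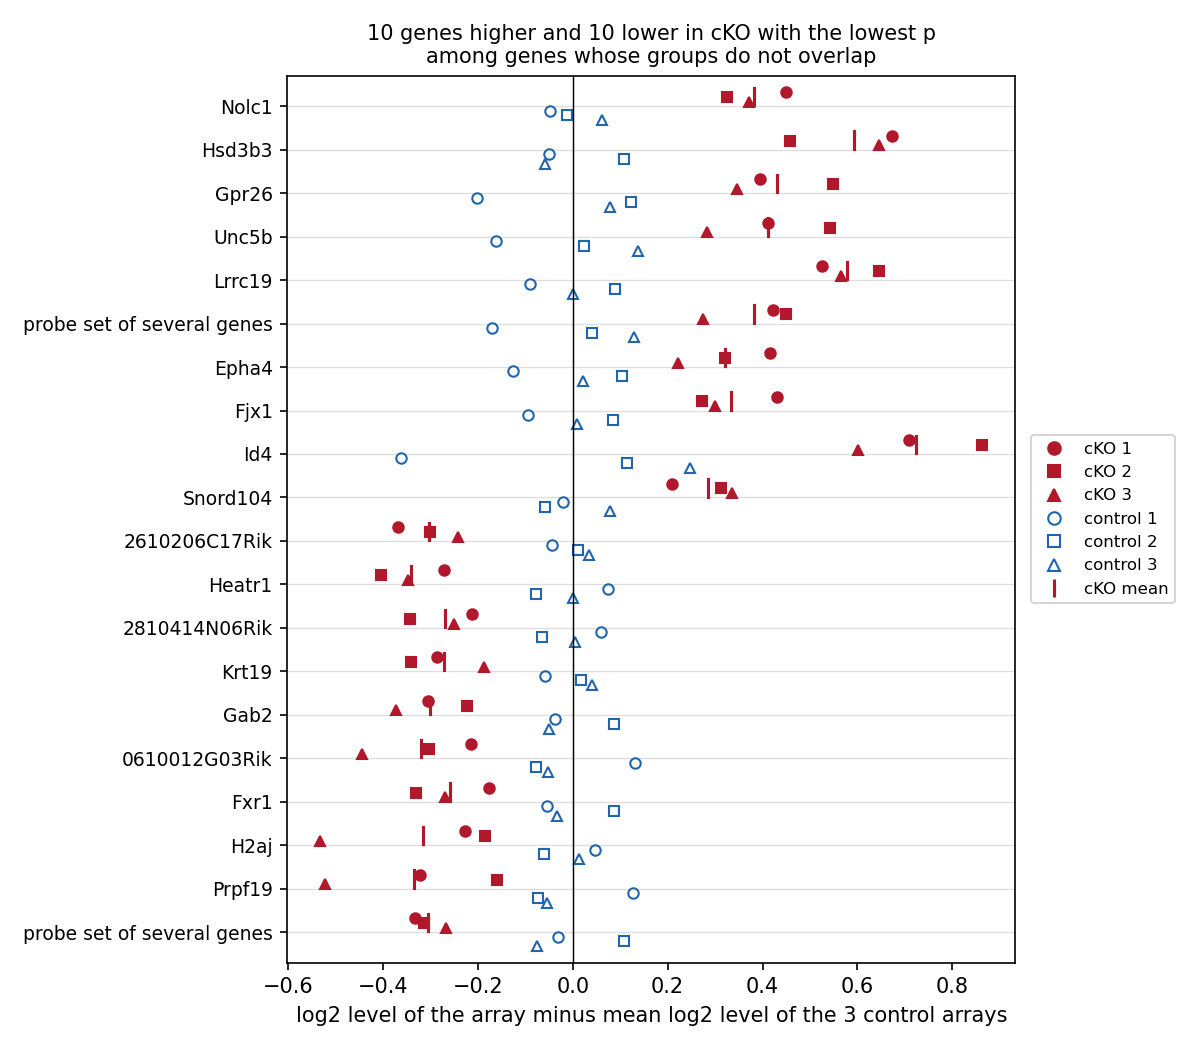
Log2 levels of the 10 genes higher and the 10 lower in cKO with the lowest p among genes whose groups do not overlap, drawn for each array against the mean of the 3 control arrays; filled symbols are cKO arrays, open symbols control arrays and the vertical mark the cKO mean. Separation is part of how these genes were chosen, and Id4 shows the largest mean difference, 0.72.

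The 4-week values were set against those of the same groups at 8 weeks. In limma no gene passed the test of the difference between the times (0 genes, against 690 at an unadjusted p under 0.05). Without cKO array 3 of 8 weeks, 324 genes passed. At 8 weeks 0 genes passed, 1024 had an unadjusted p under 0.05 and 48.8% had a difference above 0. At an unadjusted p under 0.05, 500 genes (3.23%) had a higher change at 8 weeks than at 4 weeks. Interferon-response genes had 8 of 24 higher at 4 weeks and a median of -0.03, which became 17 of 24 and 0.06 without control array 1, and 24 of 24 were higher at 8 weeks, with a median of 1.32. For 21 of the 24 the change was higher at 8 weeks at that unadjusted p. Ifi27, an interferon-induced gene, was at 9.43, 9.45 and 9.69 in cKO and at 9.77, 9.59 and 9.62 in control at 4 weeks, and differed by 1.10 at 8 weeks. Mx2, an antiviral GTPase, differed by -0.08 at 4 weeks and by 0.53 at 8 weeks. The 8-week arrays of cKO were not alike. Mx2 was at 6.56, 6.25 and 5.75 in cKO and at 5.42, 5.83 and 5.70 in control at 8 weeks. On cKO array 3 it thus lay within the control range, as did Irf1 of the same list. Ifi27 was at 11.33, 10.86 and 9.97 in cKO and at 9.64, 9.68 and 9.52 in control at 8 weeks, without overlap.

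Microglial genes showed the same contrast. At 4 weeks 5 of 26 were higher, with a median of -0.05 (0.02 without control array 1), and at 8 weeks 26 of 26 were higher with a median of 1.15. For 18 of them the change was higher at 8 weeks at an unadjusted p under 0.05. Tspo, a mitochondrial protein that serves as a marker of activated microglia, was at 6.72, 6.43 and 6.63 in cKO and at 6.99, 6.70 and 6.83 in control at 4 weeks. Its difference was -0.25 at 4 weeks and 0.95 at 8 weeks, and the change between the times was 1.20 (limma, adjusted p = 0.577). Tspo was at 8.14, 7.78 and 7.61 in cKO and at 6.91, 6.78 and 6.98 in control at 8 weeks. Tmem119 of the same list was at 8.17, 8.09 and 7.86 in cKO and at 7.82, 7.79 and 7.90 in control. For Tmem119 and for Itgam, cKO array 3 of 8 weeks did not lie above the control arrays. Genes of cholesterol synthesis had a median of -0.05 at 4 weeks (-0.03 without control array 1) and of -0.35 at 8 weeks. Dlk1, a membrane protein related to Notch ligands, had the reverse course. It was at 10.10, 10.01 and 9.86 in cKO and at 9.69, 9.74 and 9.63 in control at 4 weeks, a difference of 0.31, and its difference was -0.42 at 8 weeks. Vip differed by 0.04 at 4 weeks and by -1.65 at 8 weeks.

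**Figure D5:**
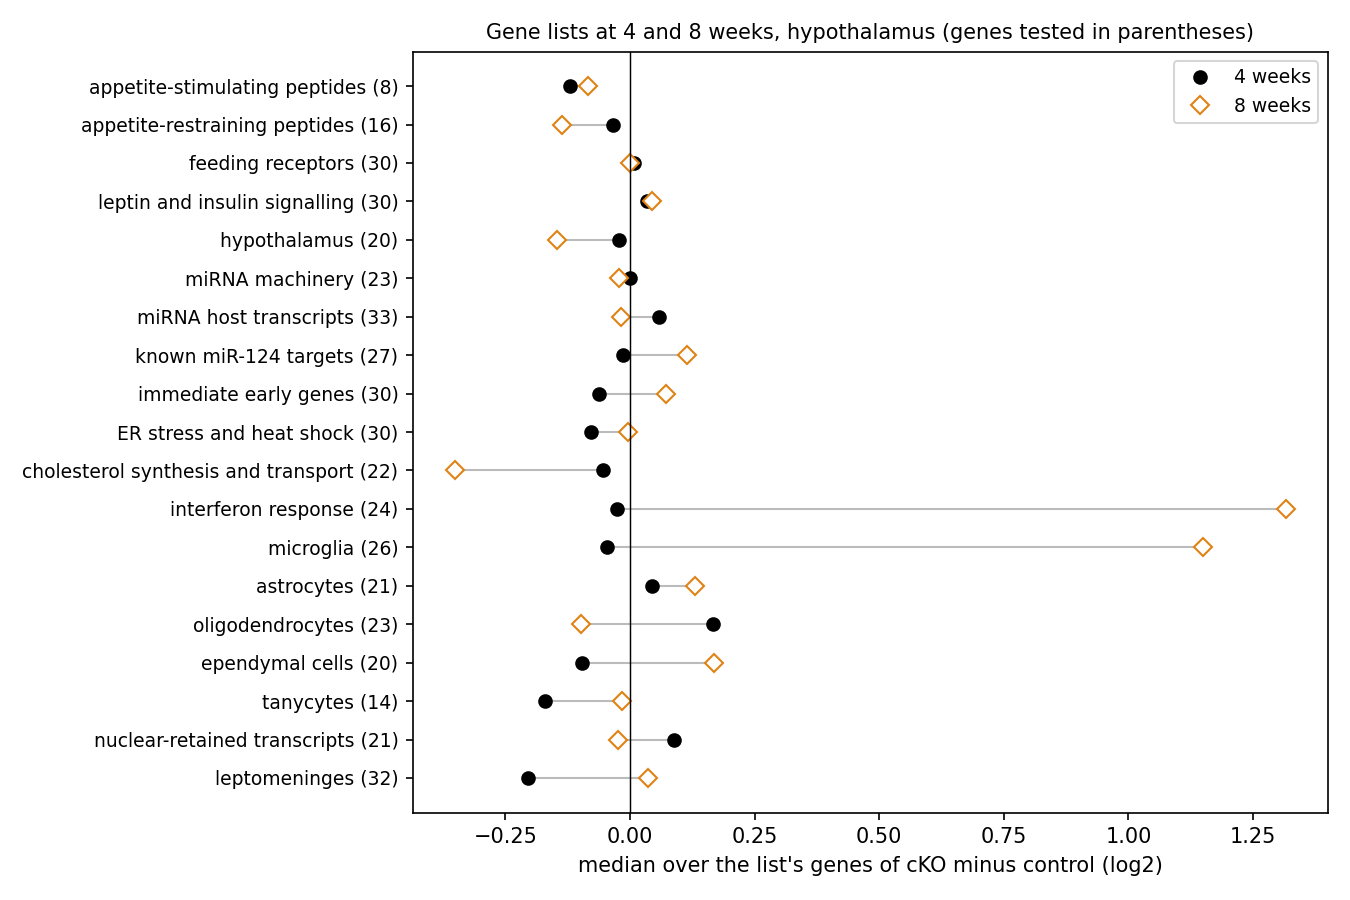
For each gene list, the x axis gives the median cKO minus control difference (log2) in the hypothalamus at 4 weeks (filled circles) and at 8 weeks (open diamonds). Interferon-response and microglial genes lie at -0.03 and -0.05 at 4 weeks and at 1.32 and 1.15 at 8 weeks.

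The change in the hypothalamus was also tested against that in the cortex at 4 weeks, where the same 3 cKO animals and 2 of the 3 control animals were used. The animal of hypothalamus control array 1 was the control animal without a cortex array. In limma, 1778 of the 14508 genes tested in both tissues (12.3%) had an adjusted p under 0.15, of which 1273 had the higher change in the cortex. This count depended on single arrays of the hypothalamus: it was 5 without control array 1 and 3 without cKO array 3. The genes with the lowest p, given by their estimates from the fit of both tissues, which treats arrays of the same animal as correlated, were Etfbkmt, a mitochondrial methyltransferase, at 0.69 in the cortex and -0.22 in the hypothalamus, Gm16835 at 0.62 and -0.10, and Npl, a lyase of sialic acid, at 0.47 and -0.23. Etfbkmt in the hypothalamus was at 7.28, 7.31 and 7.19 in cKO and at 7.51, 7.58 and 7.38 in control, so that its cKO arrays lay below the control arrays there.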

How the data were processed

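Total RNA of 6 hypothalami (4 weeks) was hybridized to Affymetrix mouse genome arrays, with 6 further hypothalami at 8 weeks and the cortex for comparison. The deposited values are log2 intensities that the authors made with RMA, tissue by tissue (version not given in the sources used here). RMA equalizes array distributions, so a shift of all transcripts would be removed. Values were used as deposited. Probe sets were named from the platform annotation and ranked by their third-highest value over 12 arrays until 15460 genes were reached. The authors removed probe sets by detection calls, which were not used here, and the number of probe sets they kept set the number of genes. For each gene the probe set of highest variance was kept, as they did, and 450 of these carry several names and are not named here. Groups were compared by limma (version 3.58.1, run in R 4.3.3) with the 4 hypothalamus groups in 1 fit, Benjamini-Hochberg adjustment and an FDR of 15%. Cortex and hypothalamus were compared with duplicateCorrelation (statmod 1.5.0) for shared animals. The fits were tested on simulated data.

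Samples were grouped by tissue, agent and time in the labels, and replicates are separate animals. Named genes are the 10 lowest p in each direction among genes with separate groups, up to 3 per list, the feeding peptides, main receptors and neurosecretory hormones, Dicer1 and Camk2a, the genes the study names for the cortex, the 3 lowest p of the differences between times and between tissues, and the 5 neuropeptide genes of highest level. The members and the 36 lists were chosen with earlier results of these data known, the midbrain list and the other probe sets after these values were seen. Alternatives covered filters, probe set choice, scaling, variance model, array weights, test, threshold, replicate block and omitted arrays. Some list genes were not analysed here. With 3 arrays per group their number limits the precision.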

Additional observations from a re-analysis of the deposited data

Results flagged for a closer look

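The change between cKO and control differed between cortex and hypothalamus at 4 weeks, by the test of the difference in limma, for 1778 genes (12.3% of those tested in both tissues). The difference between the tissues was 0.91 for Etfbkmt (limma, adjusted p = 0.0251), 0.73 for Gm16835 (limma, adjusted p = 0.0286) and 0.70 for Npl (limma, adjusted p = 0.0286), each higher in the cortex. The count was 5 without control array 1 and 3 without cKO array 3 of the hypothalamus.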

How the results depend on the processing

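Under all 24 alternatives run for it, 0 genes passed at 4 weeks (limma, and the methods' t-test after Benjamini-Hochberg). The 425 genes at an unadjusted p under 0.05 became 250 with the 6 arrays of 4 weeks alone. With an array left out they became 264 to 889. The 1026 genes with separate groups became 2148 to 3056 with an array of 4 weeks left out. Fewer arrays separate more easily by chance, so that this rise cannot show dependence on single arrays. Arrays of the later time do not enter that count. The difference between the times gave 0 genes, and 0 to 324 with an array left out. The 1778 genes of the cortex comparison became 9 at an FDR of 5%, 4276 at 25%, 811 without a filter, 2687 with 10000 genes, 984 with centred arrays, 658 with quantile normalization, 6295 with array weights, 228 with shared animals ignored, and 3 to 2184 with an array left out. Of 79 genes of the text followed under these settings, 33 changed sign under at least 1 of them. Not every gene of the text was followed. Cga, Tbx19, Npvf, Th, Slc6a3, Pank1, Pank3, R3hdm1 and Arpp21 were not among the 79, so the values below do not cover them. Of the 36 list medians 21 took the opposite sign under some setting, and 32 of 755 recomputed medians moved by more than the spread between arrays. Without a filter the differences were Nes 0.028, Prkra 0.057, Gm16835 0.20, Lepr -0.14. With 10000 genes they were Nolc1 -0.14, Gab2 0.024, 0610012G03Rik 0.014, H2aj 0.13, Ddit3 -0.0203, Pank2 -0.0798, Prpf19 0.15, Tnrc6a -0.026, Six3 -0.032, Camk2a -0.050, Dicer1 -0.026. With the probe set of highest mean they were Nolc1 -0.14, Gpr26 -0.0073, Epha4 -0.031, Gab2 0.024, Id4 -0.057, H2aj 0.13, Ddit3 -0.0203, Prpf19 0.19, Six3 -0.032, Ntrk2 -0.045, Egr3 0.037, Camk2a -0.050, Dicer1 -0.026. Quantile normalization gave Mc3r 0.0024 and array weights gave Lepr -0.0019. With an array left out, ranges that crossed 0 were Cck -0.10 to 0.40, Dicer1 -0.0065 to 0.16, Ghrl -0.11 to 0.0034, Hcrtr1 -0.084 to 0.11, Insr -0.045 to 0.10, Lepr -0.11 to 0.072, Mc3r -0.025 to 0.025, Mchr1 -0.032 to 0.18, Mx2 -0.19 to 0.0085, Npy -0.32 to 0.0397, Npy1r -0.094 to 0.017, Nts -0.26 to 0.19, Sst -0.0094 to 0.0304, Trh -0.13 to 0.27, Vip -0.085 to 0.18. The mean over other probe sets, chosen after seeing the data, was Camk2a -0.073, Crhr2 0.039, Ddit3 -0.0203, Dicer1 -0.026, Egr3 0.037, Gab2 0.031, Gpr26 -0.0073, H2aj 0.0202, Id4 -0.0696, Nolc1 -0.031, Npy1r 0.16, Ntrk2 -0.0105, Pank2 -0.038, Prpf19 0.17, Six3 -0.032. The causes were not tested. With 3 arrays a group, the median interval half-width of 0.222 limits what can be detected.

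Deviations of cKO and control arrays with the same replicate number correlated at 0.114, -0.0258 and 0.230. Arrays of different number were not correlated, so these values cannot show whether the replicate numbers pair the arrays. A pairing by animal number was not tested. With the replicate number as a block, 436 genes had an unadjusted limma p under 0.05 and 0 passed.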

Other observations

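The remaining gene lists had medians between -0.08 and 0.25 at 4 weeks, beside -0.01 over all genes. Of 21 astrocyte genes 14 were higher in cKO (median 0.04), of 8 genes of oligodendrocyte precursors 5 (0.10), of 24 genes of endothelial cells and pericytes 13 (0.01) and of 10 genes of GABAergic neurons 4 (-0.01). Of 38 transcription factors of hypothalamic nuclei 18 were higher (-0.01), of 22 clock genes 9 (-0.02), of 31 genes of lipid and energy sensing 11 (-0.02), of 25 genes of inflammatory signalling 14 (0.02) and of 15 genes of the sex steroid and thyroid axis 10 (0.03). Of 12 striatal genes 4 were higher (-0.05), of 13 genes of cortex and hippocampus 6 (-0.01), of 9 genes of the choroid plexus 4 (-0.08) and of 3 red blood cell genes 2 (0.25). Of 18 genes that the study named in the cortex, 8 were higher in the hypothalamus (-0.06). None had an unadjusted limma p under 0.05, beside 2.75% of all genes. Without control array 1 the medians of the clock genes (0.04), inflammatory signalling (-0.01), cortex and hippocampus (0.06), the choroid plexus (0.08) and the genes named in the cortex (0.01) had the other sign. That of astrocyte genes was then 0.09, of precursors 0.05, of endothelial cells and pericytes 0.07, of the transcription factors -0.05, of lipid and energy sensing -0.03 and of the sex steroid and thyroid axis 0.07. No adjusted p in these lists passed the threshold.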
